A study of Mus musculus with 2 samples.

Results

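The genes described here are 10 regulators of the cellular response to oxygen: the α subunits of the hypoxia-inducible factors (Hif1a, Epas1 and Hif3a), their β partners (Arnt and Arnt2), the hydroxylases that mark the α subunits (Egln1, Egln2, Egln3 and Hif1an) and Vhl. They were chosen by name, and each was read from the probes that the array files list under a RefSeq transcript of that gene. All 10 were present among the 20660 genes named on the arrays, with 17 probes between them. A gene was represented by its brightest probe, and its other probes are given beside it.

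A hypoxia-inducible factor (HIF) is a pair of an α and a β subunit that binds DNA and turns on genes for glucose use, vessel growth, iron handling and cell survival. With oxygen present, prolyl hydroxylases modify the α subunit, the von Hippel-Lindau protein then recognises it, and it is degraded. This control acts on the protein, so that the RNA of an α subunit is not a measure of HIF activity. Cartilage has no vessels. In growth plate chondrocytes HIF-1α is known as a survival factor, and in osteoarthritis models HIF-2α, the product of Epas1, is known as an inducer of matrix-degrading enzymes.

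The cells were primary chondrocytes of C57BL/6J mice aged 6 days, isolated with collagenase and seeded on fibronectin-coated silicon stretch chambers. After 48 h the cultures were stretched cyclically by 10% at 0.5 Hz for 30 min. RNA collected before the stretch (before loading) and RNA collected 24 h after it (24 h after loading) were each hybridised to 1 one-colour array of the same slide. The labels name no genetic change or drug, the number and sex of the animals are not given in the sources used here, and serum-free medium is stated for most experiments without naming these cultures. An unloaded culture at 24 h was not analysed here, so that loading and a further day of culture cannot be told apart.

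Each value is the scanner software's background-subtracted spot intensity, in arbitrary units. Each array was set to its own 75th percentile (466 on both), and a positive log2 ratio means a higher value at 24 h. As each time point had 1 array, the spread between cultures is unknown and nothing could be tested. The value after ± is the software's error of both spots combined, which covers error within an array only. In bright spots it was close to a fixed share of the signal, and its median over all detected genes was 0.20. It is thus no measured spread. Averaging makes it smaller for a probe with several spots, while each regulator probe had 1 spot. A gene is called detected when both arrays show its brightest probe well above background, which held for 14231 genes. A change is called past 2-fold when the log2 ratio lies beyond 1 in either direction. Intensities of different probes depend on the probe, so that levels are compared within a probe only.

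The labelled cell type was checked first. All 15 chondrocyte markers were detected, among them Col2a1, Acan and Sox9, and 0 passed 2-fold, where 2.49% of all detected genes did. Their median log2 ratio was 0.08, and the intensity summed over the markers on the array was 1506510 before and 1519240 at 24 h. By more than 2 within-array errors, Col11a1 was lower (107657 and 60799, log2 ratio -0.82), and Matn1 (0.56) and Sox9 (0.22 ± 0.07) were higher. The error of Sox9 was small: Acan (0.34 ± 0.20) and Hapln1 (0.40 ± 0.20) had larger ratios but lay within 2 errors. Of 10 endothelial markers, 5 were well above background on neither array, among them the defining genes Cdh5, Tie1 and Tek, while Pecam1 (112 and 130), Vwf, Erg, Egfl7 and Kdr were detected (summed intensity 14734 and 14051, median -0.24). Of 8 macrophage markers, 7 were on the arrays and all 7 were detected, with summed intensities of 4508 and 4332 (median 0.09), and Ptprc was past 2-fold higher (20.9 and 46.1). Of 6 adipocyte markers, 4 were detected (summed intensity 1696 and 2514, median 0.98), and Adipoq (54.2 and 265) and Plin1 (61.7 and 124) were past 2-fold higher. Fabp4 was also higher (log2 ratio 0.95), while Pparg was lower (812 and 672, log2 ratio -0.27 ± 0.07). Skeletal muscle markers (4 of 8 detected, summed intensity 1926 and 1729.88, median 0.17, Myh8 past 2-fold higher) and erythroid markers (1 of 4 detected, 78.5 and 84.7, log2 ratio -0.12) completed the check. The detected muscle markers went both ways, with 2 higher and 2 lower. Myh3 was higher (log2 ratio 0.64), and the other Myh8 probe was not detected. Tnnt3 was lower (585 and 339, log2 ratio -0.78), as was its other probe (449 and 224). Acta1, the brightest of them, was also lower (log2 ratio -0.31). A summed intensity follows its brightest probes and is no measure of cell number. Most of the endothelial sum was Kdr (12774 and 12375), and most of the macrophage sum was Csf1r (3646 and 3288). The other Kdr probe was not detected (5.2 and 6.2). Csf1r had a log2 ratio of -0.15 on its brightest probe, and 0.20 and 0.27 on its other probes. The part of the other cell types in the values below was not tested, and in these bulk samples fewer cells of a type cannot be told apart from less RNA per cell.

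Of the 10 regulators, 9 were detected on both arrays and 0 of these were past 2-fold, where 2.49% of all detected genes were. The ratios of 7 of the 9 were smaller than their own within-array error, as were those of 56.6% of all detected genes. The median log2 ratio of the 9 was 0.04, beside -0.01 over all detected genes. Only 1 of the 9, Egln3, differed by more than 2 within-array errors, where 17% of all detected genes did. Arnt2 was well above background on 1 array only.

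**Figure D1:**
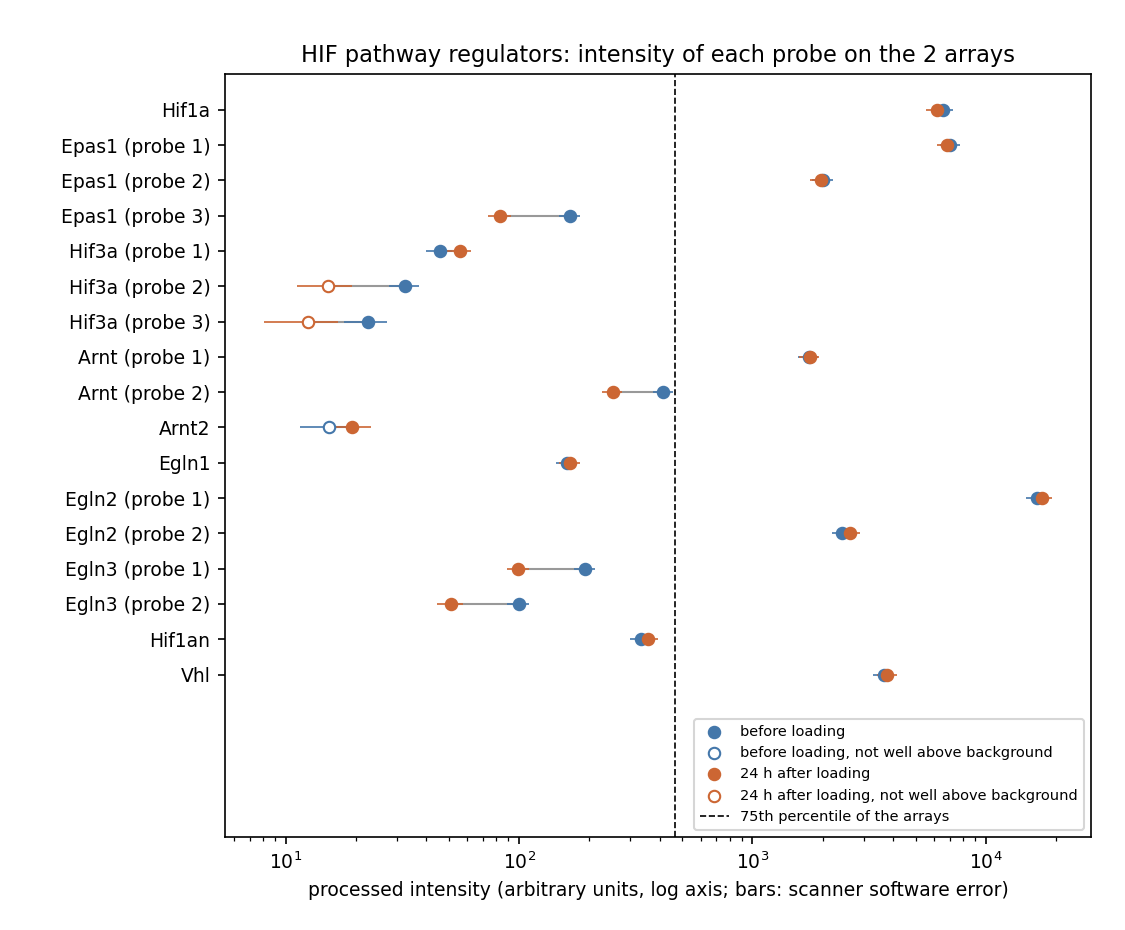
Processed intensity of each of the 17 probes (arbitrary units, log axis) before loading (blue) and 24 h after loading (orange), with bars for the scanner software's error and open symbols for values not well above background. The points of most genes overlap, while both Egln3 probes, the dimmest Epas1 probe and the middle Hif3a probe lie about 2-fold apart. Those of the dimmest Hif3a probe (1.80-fold) and the dimmer Arnt probe (1.65-fold) also lie apart. The dashed line marks the 75th percentile of the arrays at 466.

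Among the α subunits, Hif1a, which encodes the broadly expressed HIF-1α, measured 6569.8 before and 6168 at 24 h. The level at 24 h was 93.9% of that before, a log2 ratio of -0.09 ± 0.20. The points of the 2 arrays overlapped within their errors, and the interval of 2 within-array errors ran from -0.50 to 0.32. Hif1a had a single probe, and its spot had 28 neighbours within 100 µm, of which 2 were past 2-fold higher and 0 lower. Here and below, neighbours were counted whether or not they were well above background. The share of all spots past 2-fold is not given, so that these counts cannot be called usual or unusual.

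Epas1, which encodes HIF-2α, was read by 3 probes that the files list under the same transcript. The brightest had 7053 before loading and 6846 at 24 h (log2 ratio -0.04 ± 0.20). The middle one had 2002 and 1962 (log2 ratio -0.03 ± 0.20). Both thus showed Epas1 within its error. The dimmest probe differed, with 165 before and 82.7 at 24 h, a log2 ratio of -0.99 ± 0.22. The gap of 0.97 between the probes of Epas1 was wide: of 3635 genes with more than 1 detected probe, 1.98% had a range at least as large, and the median range was 0.19. Among detected probes within 0.5 log2 units of the level of this dim probe, 3.27% were lower by at least as much. Its spot had 29 neighbours, of which 1 was more than 2-fold lower. The transcript region that each probe reads was not analysed here. When the detected probes were averaged in place of taking the brightest, the log2 ratio of Epas1 was -0.35.

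Hif3a encodes a further α subunit, some splice forms of which restrain the others. It was dim. The brightest of its 3 probes had 45.6 before loading and 55.8 at 24 h, a log2 ratio of 0.29 ± 0.25. The other probes went the opposite way. The middle one had 32.5 before and 15.2 at 24 h, and the dimmest had 22.5 and 12.5. Both were not well above background at 24 h, where the lowest intensity well above background on the array was 17.8. Set against that level, they were 1.82-fold and 1.26-fold lower at 24 h. These values leave out the within-array errors of 0.44 and 0.59. The dimmest probe's interval of 2 within-array errors ran from -2.03 to 0.33. The probes of Hif3a therefore give no single direction.

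The β subunits pair with the α subunits and with other proteins of the same family. Arnt, the general partner also called HIF-1β, had 1739 before loading and 1759 at 24 h on its brightest probe, a log2 ratio of 0.02 ± 0.20. The other Arnt probe had 416 and 251, a log2 ratio of -0.72 ± 0.21. As in Epas1, the bright probe was within its error and the dimmer probe was lower at 24 h, and 5.91% of genes with several detected probes had a range as large as the 0.74 of Arnt. The mean over both Arnt probes was -0.35. Arnt2, a partner best known from neurons, had 15.3 before loading, which was not well above background, and 19.2 at 24 h, which was. Against the lowest intensity well above background before loading, 17.3, Arnt2 was 1.11-fold higher at 24 h, a value that leaves out its error. The within-array error of Arnt2, 0.47, was larger than its log2 ratio of 0.33, which came to -0.02 with normexp background correction.

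**Figure D2:**
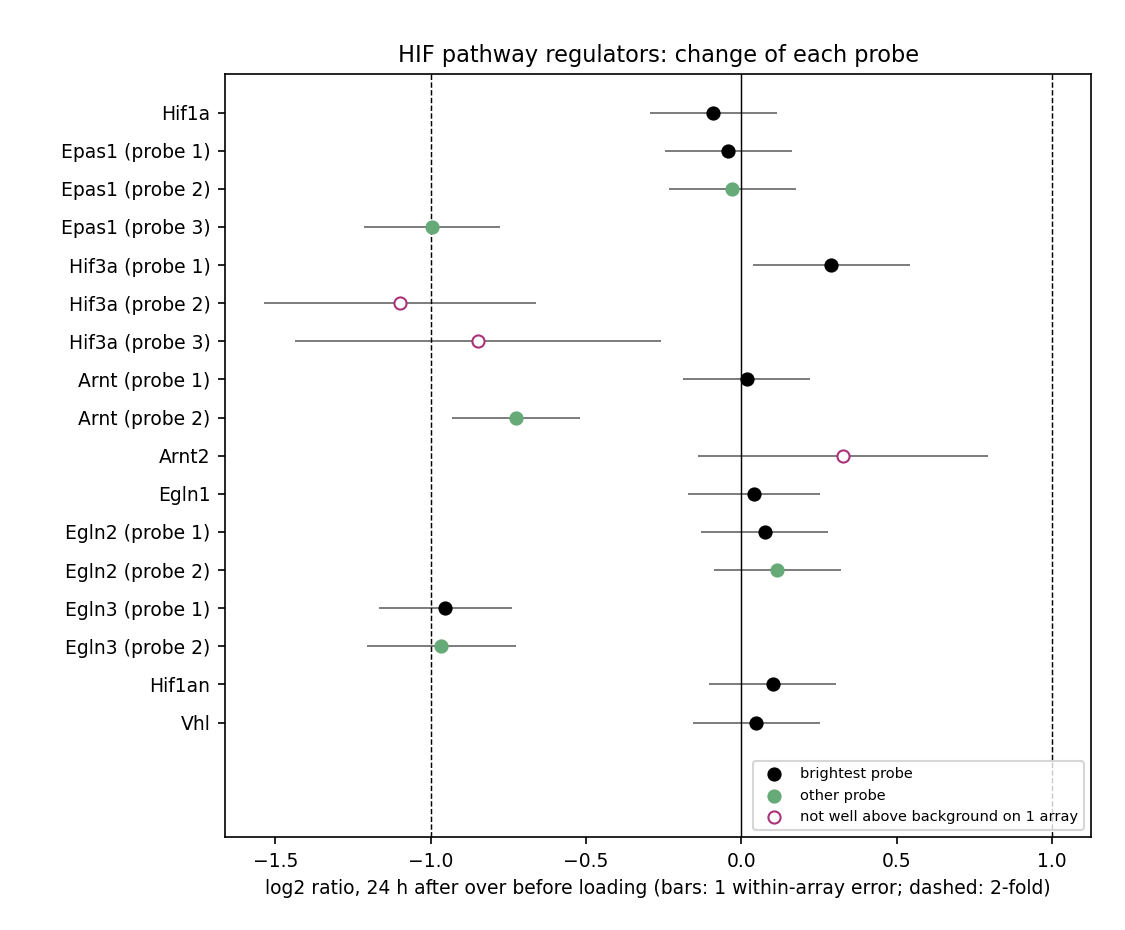
Log2 ratio of each probe, 24 h after over before loading, with bars of 1 within-array error, a solid line at 0 and dashed lines at 2-fold. Black points are the brightest probe of a gene, green points its other probes and open points probes not well above background on 1 of the arrays: both Egln3 probes lie near -0.96, and the dimmest Epas1 probe, both dimmer Hif3a probes and the dimmer Arnt probe lie left of the brightest probe of their gene.

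The prolyl hydroxylases use oxygen and 2-oxoglutarate to modify HIF α subunits. Egln1, which encodes PHD2, the main enzyme of this step in most cells, had 160 before loading and 165 at 24 h, a log2 ratio of 0.04 ± 0.21. Egln2, which encodes PHD1, had 16554 and 17432 on its brightest probe (log2 ratio 0.08 ± 0.20). The other Egln2 probe had 2426 and 2628 (log2 ratio 0.12 ± 0.20). Both genes were within their errors on every probe. The spot of the dimmer Egln2 probe had 9 of 29 neighbours more than 2-fold higher, and that of the brightest had 6 of 26 more than 2-fold lower, and the part of these neighbours was not tested.

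Egln3, which encodes PHD3, was the regulator that stood apart. The RNA of this enzyme is known to be raised by HIF itself. The brighter Egln3 probe had 192 before loading and 99.3 at 24 h, which is 51.7% of the level before. This was a log2 ratio of -0.95 ± 0.21, or 1.93-fold lower, and the interval of 2 within-array errors ran from -1.38 to -0.53. The other Egln3 probe had 99.5 and 50.9, a log2 ratio of -0.96 ± 0.24. The probes differed by 0.01, and 95.9% of genes with several detected probes had a range at least as large. Egln3 stayed just inside 2-fold. Over all detected genes, 1.97% had a lower log2 ratio. Among the 1355 detected genes within 0.5 log2 units of its level, 4.06% were lower by at least as much and 3.69% were past 2-fold lower. Of the 27 neighbours of the brighter Egln3 spot and the 28 of the other, 0 were more than 2-fold lower. With normexp background correction and an offset of 50 added to every spot, the log2 ratio was -0.68, and under the other settings it lay between -0.96 and -0.85.

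The stretch before the transcription start is shown for the 3 prolyl hydroxylase genes, because the Egln3 ratio lay beyond 2 within-array errors and those of Egln1 and Egln2 lay within 1, and for Ankrd37, the HIF target with the lowest log2 ratio. Each is 250 bases, 5′ to 3′ on the gene's strand, from RefSeq on build GRCm38.p6, and capitals mark ACGTG or GCGTG, the core of the hypoxia response element, read on either strand (so also CACGT and CACGC).
Egln1, chr8:124949255-124949504, reverse strand: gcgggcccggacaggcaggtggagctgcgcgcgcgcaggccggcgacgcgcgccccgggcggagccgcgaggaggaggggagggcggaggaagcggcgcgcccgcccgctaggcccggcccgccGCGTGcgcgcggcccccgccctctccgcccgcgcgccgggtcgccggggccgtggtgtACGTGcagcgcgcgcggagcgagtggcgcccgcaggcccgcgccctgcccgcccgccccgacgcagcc
Egln2, chr7:27166803-27167052, reverse strand: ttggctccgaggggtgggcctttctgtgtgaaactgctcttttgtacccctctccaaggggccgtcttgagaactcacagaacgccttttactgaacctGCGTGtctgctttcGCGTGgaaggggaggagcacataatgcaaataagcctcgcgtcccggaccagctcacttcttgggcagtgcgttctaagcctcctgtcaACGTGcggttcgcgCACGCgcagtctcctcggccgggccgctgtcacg
Egln3, chr12:54203875-54204124, reverse strand: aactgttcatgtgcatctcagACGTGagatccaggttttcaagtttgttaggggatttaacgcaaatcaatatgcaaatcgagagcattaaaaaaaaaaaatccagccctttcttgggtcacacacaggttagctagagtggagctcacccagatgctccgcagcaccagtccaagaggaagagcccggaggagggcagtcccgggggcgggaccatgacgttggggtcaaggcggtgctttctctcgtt
Ankrd37, chr8:45999851-46000100, reverse strand: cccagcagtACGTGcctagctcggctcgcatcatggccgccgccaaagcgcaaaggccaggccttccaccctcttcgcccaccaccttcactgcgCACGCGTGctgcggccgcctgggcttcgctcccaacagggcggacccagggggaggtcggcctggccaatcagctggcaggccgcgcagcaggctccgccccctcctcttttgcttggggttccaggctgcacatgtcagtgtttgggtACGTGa

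The Egln3 stretch held 1 core, 229 bases before the start, and the Egln1 stretch held 2. In Egln2, shown for the first of its 2 promoters in the table, there were 4 within the stretch, and CACGTG across the start itself is not capitalised because it runs past the end shown. In Ankrd37 there were 4, where CACGCGTG holds 2 of them overlapping by 2 bases. Over windows that run 50 bases further, 43.8% of 32851 promoters held a core on either strand, and 46.7% of 27025 genes had one in at least 1 promoter. Of the 9 regulators matched in the table, 6 had one, and Arnt2, Hif1an and Vhl did not. Among the 31 matched genes of the HIF target list described below, 29 had one. The core contains a CpG, and among genes with at least 25 CpG in a window, which is the median of the HIF targets, 78.5% had one. A match describes these letters and not a bound site.

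Hif1an encodes FIH, the hydroxylase that modifies an asparagine of HIF α subunits and thereby blocks their coactivators. Its probe had 334 before loading and 358 at 24 h, a log2 ratio of 0.10 ± 0.21. Vhl, the subunit of a ubiquitin ligase that recognises hydroxylated HIF α, had 3663 and 3786, a log2 ratio of 0.05 ± 0.20. Each was thus within its error on a single probe. Of the 27 neighbours of the Hif1an spot, 5 were more than 2-fold lower, and their part was not tested.

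Proteins that work with these regulators, or that share their chemistry or family, were followed in 4 lists. In any of these lists 0 genes were past 2-fold, where 2.49% of all detected genes were. All 10 partners of Vhl were detected, which are ubiquitin ligase subunits, their activator Nedd8, ubiquitin-conjugating enzymes and deubiquitinases, with a median log2 ratio of 0.03. Of these, 8 were within their own error, where 56.6% of all detected genes were. The lowest were the ligase subunits Rbx1 (-0.18), Eloc (-0.14) and Cul2 (-0.03), and the highest were the ubiquitin-conjugating enzymes Ube2d1 (0.53, from 37.3 to 54.0), Ube2d3 (0.25) and Ube2d2a (0.12). The probes of several of these genes disagreed. The other Ube2d3 probe had -0.48 (5571 and 3998), the other Ube2d2a probes -0.33 and 0.25, the other Rbx1 probes -0.28 and 0.27, and the other Cul2 probes between -0.03 and 0.25.

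All 19 HIF cofactors and stability factors were detected, with a median of -0.03. Ep300 (0.14) and Crebbp (0.12), the coactivators that bind HIF, and Cited2 (-0.03), which competes for them, were named after their values were seen and lay within their errors. The list's lowest ratios were those of Cited1, a transcription cofactor related to Cited2, which went from 180 to 102 (-0.82), of the deacetylase Sirt1 (-0.47) and of the chaperone Hsp90aa1 (-0.28). The highest were those of the LIM domain protein Wtip (0.35), the lectin Os9 (0.26) and the coactivator Ncoa2 (0.24).

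All 32 other 2-oxoglutarate dioxygenases, enzymes of the same chemistry that act on collagen, histones, DNA or RNA, were detected, with a median of -0.07, and 20 were within their errors, beside the same 56.6% of all detected genes. Collagen prolyl hydroxylases were at both ends: P3h2 had the lowest ratio (788 and 483, log2 ratio -0.71) and P3h3 the highest (4681 and 6422, log2 ratio 0.46). P4ha2 (-0.37) and Kdm6a (-0.31) were next lowest, and P4ha1 (0.33, with -0.06 on its dimmer probe) and Kdm6b (0.25) next highest. P4ha1, P4ha2, Plod2 and Kdm3a of this list are also in the list of HIF targets described below. Of 12 other bHLH-PAS genes, the family of HIF and Arnt, 8 were detected, with a median of 0.01. The coactivator Ncoa3 (0.44, with -0.24 on its dimmer probe), the neuronal factor Npas3 (0.21) and Ahrr (0.09), the repressor of the aryl hydrocarbon receptor, were highest. Npas4 (-0.35), another neuronal factor, the receptor Ahr itself (-0.11) and the circadian factor Clock (-0.09) were lowest.

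**Figure D3:**
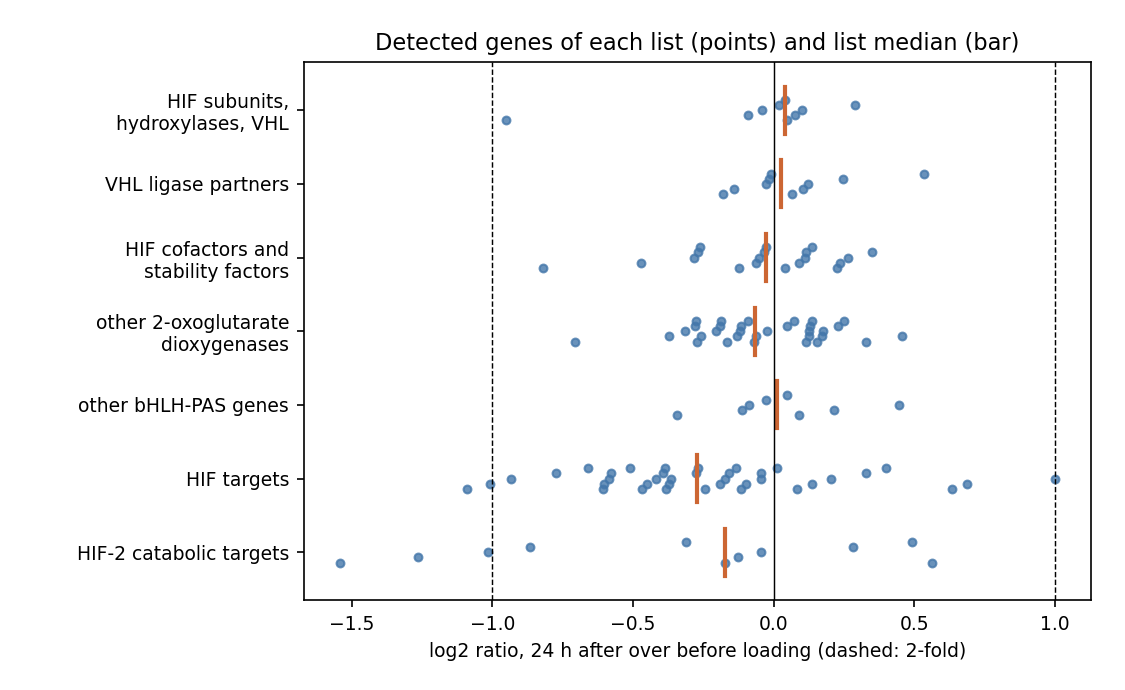
Log2 ratio, 24 h after over before loading, of each detected gene (points) in the 7 lists, with the list's median as a bar and dashed lines at 2-fold. The medians of the regulators and of the lists of their partners and related genes lie between -0.07 and 0.04. Those of the HIF targets and the HIF-2 catabolic targets lie at -0.27 and -0.17.

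The genes that HIF is known to turn on were listed next, 40 in all, chosen with an earlier result on HIF targets of these arrays known, so that the list is no independent evidence of its direction. Of these, 38 were detected, and the median log2 ratio was -0.27. A total of 29 of the 38 were lower at 24 h, where 52.4% of all detected genes were. By more than 2 within-array errors, 13 (34.2%) were lower and 3 higher, where 9.4% of all detected genes were lower and 7.64% higher. Past 2-fold, 2 were lower, where 1.83% of all detected genes were, and 1 was higher, where 0.668% were. These counts rest on genes near the threshold: 0 targets were past 2-fold with normexp correction.

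The target past 2-fold by most was Ankrd37, an ankyrin repeat protein, with 323 before loading and 152 at 24 h (log2 ratio -1.09 ± 0.21). Stc2, a secreted glycoprotein, had 4578 and 2274 (log2 ratio -1.01 ± 0.20). Ndrg1, a stress-response gene, had 10022 and 5248 (log2 ratio -0.93). These 3 were the lowest on the brightest probe of each gene, beside -0.95 for Egln3, which is left out of this list. The choice of probe mattered for Loxl2. It had -0.38 on its brightest probe, and -0.90 (5310 and 2849) and -1.11 (3747 and 1739) on its other probes. The log2 ratio was -0.59 for the glycolytic enzyme Pgk1, -0.60 for the lactate transporter Slc16a3 and -0.58 for Pdk1, which inhibits pyruvate dehydrogenase. It was -0.16 for Ldha and -0.10 for Aldoa, also enzymes of glycolysis, both within their errors. These 5 genes, Loxl2, and Car9 and Vegfa below were named after their values were seen.

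Targets also moved the other way. Slc2a3, a glucose transporter, had 40.6 before loading and 81.3 at 24 h (log2 ratio 1.00 ± 0.28). Car12, a carbonic anhydrase, had 1125 and 1810.03 (log2 ratio 0.69), while the related Car9, a gene closely tied to HIF-1α, had 1614 and 1167 (log2 ratio -0.47). Aldoc, the aldolase of brain, had 12408 and 19218 (log2 ratio 0.63). Slc2a3, Car12 and Aldoc were the 3 highest. Vegfa, the vessel growth factor, had 2277 and 1999 on its brighter probe (log2 ratio -0.19) and -0.64 on the other. Of 15 targets with several detected probes, all probes of 11 were lower, all probes of 1 were higher, and those of 3 lay on both sides of 0. Whether the targets differ from the regulators was not tested.

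**Figure D4:**
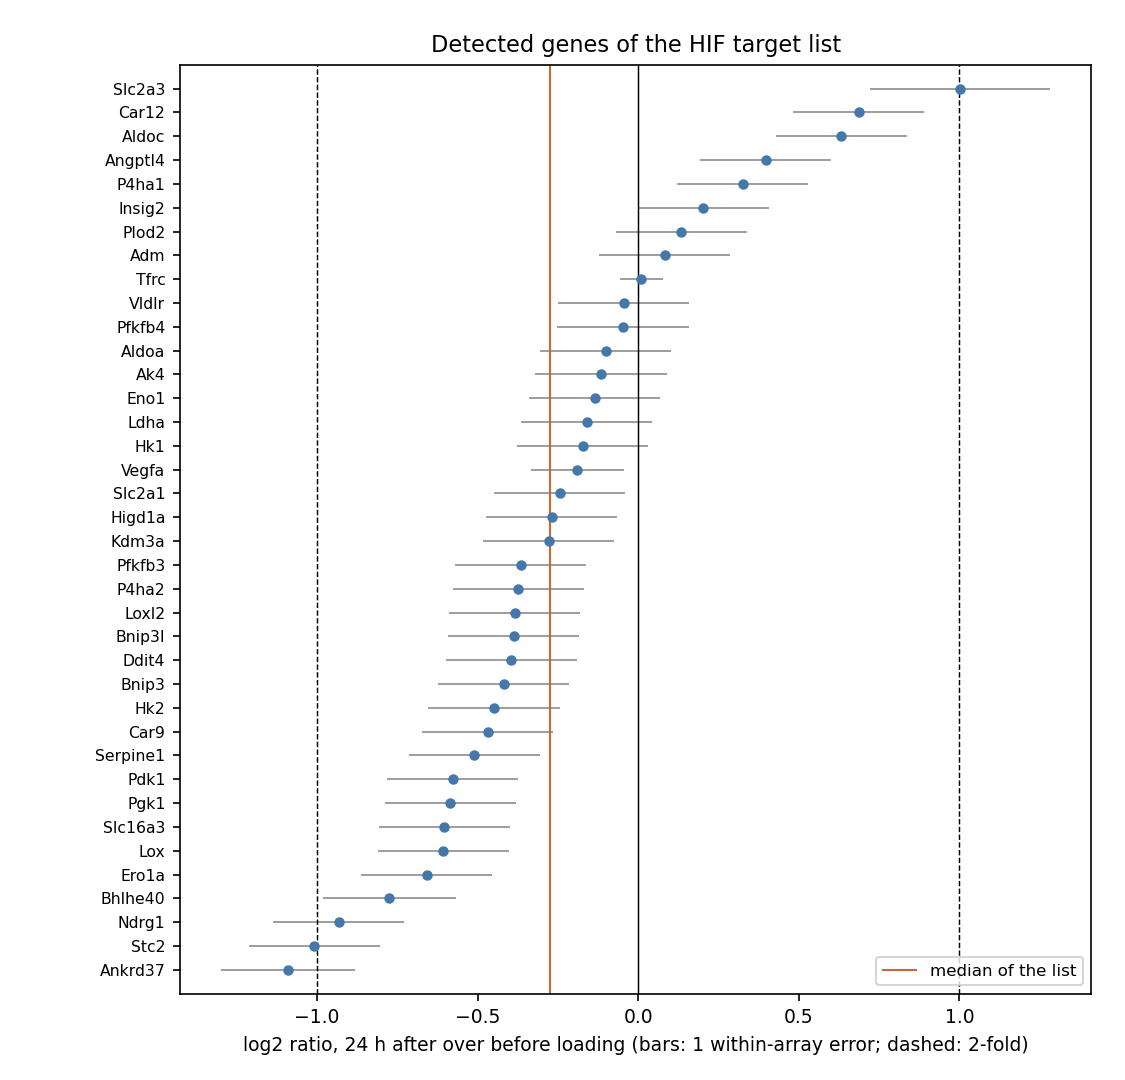
Log2 ratio, 24 h after over before loading, of the 38 detected HIF targets in order, with bars of 1 within-array error, dashed lines at 2-fold and the list's median of -0.27 as an orange line. Most points lie left of 0, from Ankrd37 at -1.09 to Slc2a3 at 1.00.

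HIF-2α is known to raise catabolic genes in chondrocytes, and 14 such genes and genes of the connected zinc pathway were listed. Of these, 11 were detected, with a median log2 ratio of -0.17, and 3 were past 2-fold, all lower, where 1.83% of all detected genes were past 2-fold lower. They were Col10a1, the collagen of hypertrophic chondrocytes (18910 and 6485, log2 ratio -1.54), and the metallothioneins Mt2 (145029 and 60360, log2 ratio -1.26) and Mt1 (184226 and 91158, log2 ratio -1.01), which bind zinc and degrade no matrix. By more than 2 within-array errors, 5 (45.5%) were lower and 2 higher, where 9.4% of all detected genes were lower and 7.64% higher. Ptgs2 (-0.87) and Nos2 (-0.31), named after their values were seen, were among those lower. Of the detected matrix-degrading enzymes of the list, which were Mmp3, Mmp13 and Adamts4, 0 were past 2-fold, where 2.49% of all detected genes were. Adamts4 (91.3 and 135, log2 ratio 0.56) and Mmp13 (617 and 867, log2 ratio 0.49) were highest, ahead of the zinc-sensing factor Mtf1 (0.28 on its brightest probe and -0.46 on its other detected probe). Of the other matrix-degrading enzymes, named after their values were seen, Mmp3 had -0.17, Mmp9 was well above background on neither array, and Mmp12 (19.8 and 36.5) was so at 24 h only. Epas1 itself was within its error on its 2 brighter probes, as given above.

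The sign of the smallest ratios depended on the processing. Hif1a and Epas1 came to 0.01 and 0.06 when arrays were scaled by their medians, which raised the median of all detected genes by 0.10, and to 0.01 and 0.05 when arrays were scaled by spike-in controls. Arnt came to -0.03 with normexp correction and to -0.35 as the mean over its probes, and Arnt2 to -0.02 with normexp correction. Egln3 was lower and Hif3a, Egln1, Egln2, Hif1an and Vhl were higher under all 6 settings run for them. All settings reuse the same arrays, so that an unchanged sign is no replication. Averaging over detected probes also changes nothing for a gene with a single detected probe. That held for Hif3a, whose dimmer probes were lower at 24 h.

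**Figure D5:**
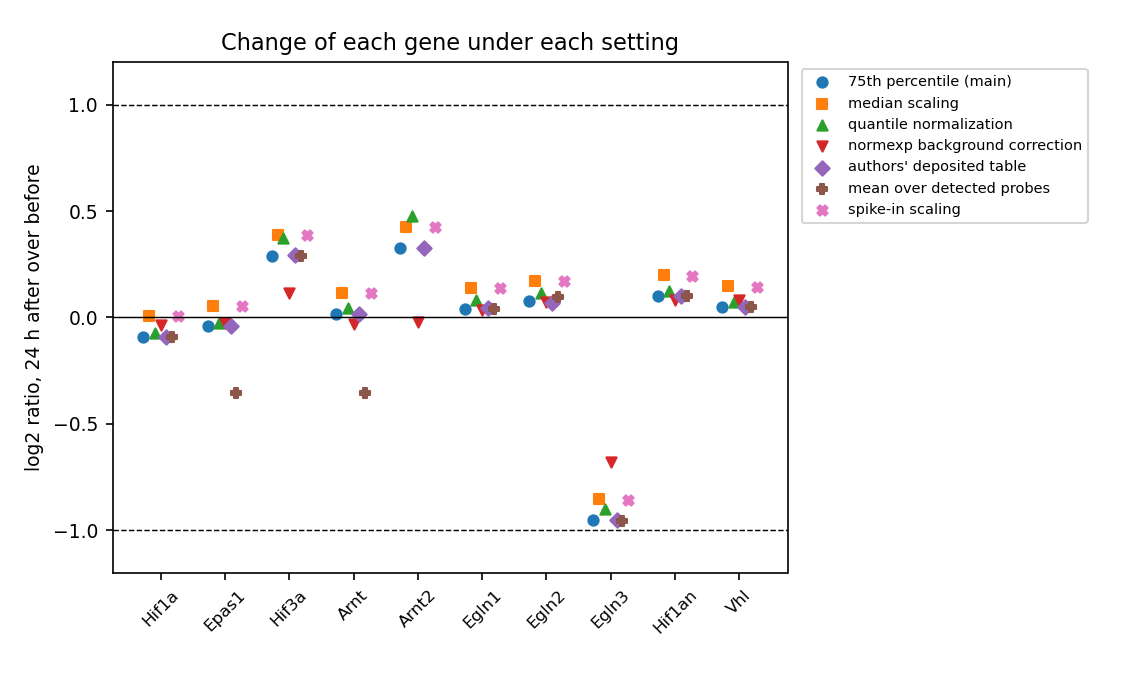
Log2 ratio of each regulator, 24 h after over before loading, under scaling to the 75th percentile and 6 other settings (symbols, 5 for Arnt2), with dashed lines at 2-fold. Egln3 lies between -0.96 and -0.68 under every setting shown, and the other regulators stay between -0.35 and 0.48.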

How the data were processed

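RNA of mouse primary chondrocytes was measured on Agilent SurePrint G3 mouse expression arrays, 1 for each time point. The deposited spot intensities come from Agilent Feature Extraction 10.10.1.1, the version in the submitters' processing notes, background-subtracted and with no normalization between arrays. The authors' table of values holds the same intensities rounded (largest difference 0.497%).

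Outlier-flagged spots were left out (141 and 138), spots of one probe were averaged, and log2 intensity minus each array's 75th percentile was compared. Probes were named by unversioned accession through RefSeq (GRCm38.p6, names only), which named 27235 of 55678 probes. Of 59305 non-control spots, 59.1% and 57.7% were well above background and 0 were saturated. Precision is limited by the number of arrays. The genes and 12 lists were chosen with earlier results of these data known. All regulators are named, and of each other list the genes past 2-fold and the 3 highest and 3 lowest. Of the marker lists only defining genes, those past 2-fold and some chosen after their values were seen are named. Genes named otherwise are said to be. Bmal1 and Bmal2 were read under older symbols, and Cd68 had no probe. The script that makes the calls was tested on simulated data, and 9 alternatives were tried. Python 3.11.15, numpy 2.4.6, pandas 2.3.3, scipy 1.17.1, matplotlib 3.10.9 and, for normexp, limma 3.58.1 in R 4.3.3 were used.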

Additional observations from a re-analysis of the deposited data

How the results depend on the processing

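A total of 8 alternatives set at the start and 1 added after seeing the data, scaling to spike-in controls, were run. Normexp was run on the median spot intensity. No paired analysis was possible because each time point had a single array, and no array could be left out for that reason. The count of regulators past 2-fold was 0 under all 9. Of 59 recomputed ratios of regulators, 56 moved by less than the within-array error. Egln3 moved to -0.68 with normexp correction, and Epas1 to -0.35 and Arnt to -0.35 with the mean over detected probes, since their dim probes then count. The median of the regulators lay between 0.03 and 0.14 and that of the HIF targets between -0.28 and -0.18, with 26 to 29 of 38 targets lower.

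HIF targets past 2-fold, 3 in all, were 4 with no filter on dim probes, 2 with quantile normalization and 1 with median or spike-in scaling. They were 0 with normexp correction and 0 when 2-fold had to be passed by more than 2 within-array errors. With that allowance the HIF-2 catabolic list had 1, macrophage and skeletal muscle markers 0 and adipocyte markers 1. With normexp correction macrophage and skeletal muscle markers had 0 and adipocyte markers 1. Adipocyte markers had 3 with median or spike-in scaling. With no filter on dim probes the bHLH-PAS list and endothelial markers had 1 each, and skeletal muscle and erythroid markers 2 each, and with detection on at least 1 array skeletal muscle markers had 2; both settings add dim probes. The causes of the other moves were not tested. Over all detected genes, 95 were higher and 260 lower past 2-fold, 130 and 205 after scaling to the median, 130 and 207 after scaling to spike-ins, 38 and 117 with normexp correction, 492 and 983 with no filter, and 192 and 507 with detection on at least 1 array. Signal over background limits Hif3a and Arnt2 most.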
